A study of Mus musculus with 2 samples.

Results

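Fatty acids are the main fuel of the adult heart. They are released from lipoproteins at the capillary wall, taken up and bound in the cytosol, activated to acyl-CoA, carried into mitochondria on carnitine and shortened by repeated rounds of beta-oxidation, whose electrons pass to the respiratory chain. The genes described here are 31 genes of that route, chosen by name and matched by gene symbol in the tables of both libraries. All 31 had reads in both, out of 15031 annotated genes with reads in either library.

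Long-read RNA sequencing, in which 1 read can span a whole spliced transcript, was applied to heart tissue of female B6CASTF1/J mice, a first-generation hybrid of a C57BL/6 and a CAST strain, at 18 to 20 months of age. There was 1 group of 2 libraries, replicate 1 and replicate 2, each from 2 µg of total RNA, with no treatment or second genotype named. The labels give each library its own biological sample but 1 shared donor entry, so the spread between the libraries may in part be technical. No conditions could be contrasted, and every test below sets the difference between the 2 libraries against counting error only. In whole tissue, fewer cells of a type and less RNA per cell cannot be told apart.

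Replicate 1 held 630211 mouse reads and replicate 2 held 664319. The 31 genes took 21577 of these reads in replicate 1, or 3.42% [3.38 to 3.47], and 24196 in replicate 2, or 3.64% [3.6 to 3.69], where brackets hold exact 95% Clopper-Pearson intervals that cover counting error only. Levels are given in CPM, the reads of a gene per 1000000 mouse reads after scaling of the library sizes, and each ± gives the SD of the 2 library values (n = 2). Their levels summed to 34721 CPM (replicate 1) and 35915 CPM (replicate 2), a mean of 35318 ± 844 CPM. Fabp3 alone held 35.7% and 34.2% of their reads. Levels of different genes are compared as CPM per kb of the leading known transcript, the annotated transcript with the most reads. A long read stands for 1 molecule whatever its length, so dividing by length can itself lower long transcripts. Over the 31 genes, log2 CPM was lower for longer transcripts in replicates 1 and 2 (Pearson r of -0.35 and -0.38, Spearman rho of -0.39 and -0.4). Ratios in reads are therefore given beside ratios per kb. On the per kb scale the levels ran from 14990 ± 93.9 for Fabp3 to 3.02 ± 0.586 for Cpt1a. Of the 30 neighbouring pairs in that order, 17 had ranges of mean ± SD that overlapped, so the order within those pairs is not resolved. Acaa2 above Acadm and Hsd17b10 above Hadh are examples of such pairs, while Fabp3 above Acot13, Etfb above Hadhb and Ech1 above Lpl did not overlap. These orders hold on the per kb scale only and depend on the lengths used. In Lpl, the incomplete models of 2 or more exons (class defined below) with the most reads end at chr8:68905011. Lpl-201 ends later, at chr8:68906934, as do single-exon models of 138 reads in replicate 1 and 156 in replicate 2. The Lpl level per kb may thus be too low, and Ech1 above Lpl is not settled. The level of Acot13 includes many unspliced reads, as described below. In CPM, Hadhb (mean 2755) stood above Etfb (1685), and Lpl (3569) stood above Ech1 (1506.5).

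**Figure D1:**
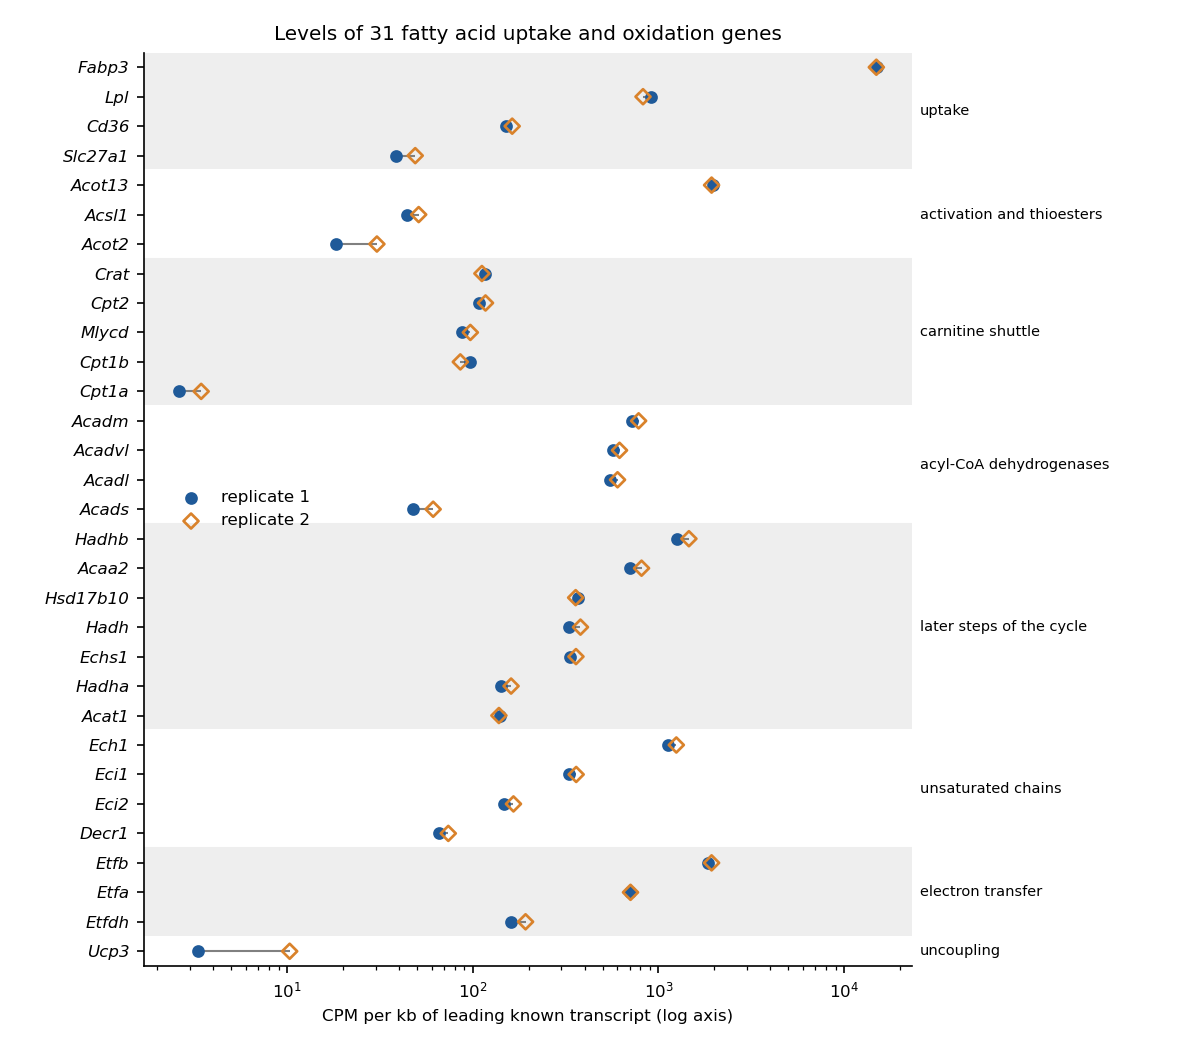
Level of each of the 31 genes in CPM per kb of the leading known transcript (log axis), with replicate 1 as filled circles and replicate 2 as open diamonds, ordered by role. Fabp3 stands at 14990 ± 93.9 CPM per kb on average, and Cpt1a and Ucp3 lie below 15 CPM per kb in both libraries.

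Uptake genes were led by Fabp3, the heart fatty acid binding protein, which carries fatty acids through the cytosol. The gene lies at chr4:130308595-130315463 on the plus strand (mm10). It had 7700 reads (12391 CPM) in replicate 1 and 8274 reads (12281 CPM) in replicate 2, the 7th highest level of all annotated genes. The 2 values differed by less than 1%, with a fold of 0.991 [0.961 to 1.02] for replicate 2 over replicate 1. A processed pseudogene on chromosome 10, Fabp3-ps1, had 17 and 6 reads of its own, few beside those of Fabp3.

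Lpl, the lipoprotein lipase that frees fatty acids from circulating triglyceride, had 2324 reads (3740 CPM) in replicate 1 and 2289 reads (3398 CPM) in replicate 2. Replicate 1 was the higher, and the difference did not pass the threshold of 0.05 for an adjusted p (fold 0.909 [0.857 to 0.963] for replicate 2 over 1, adjusted p = 0.052, exact two-sided binomial test with Benjamini-Hochberg adjustment over 7545 genes). It did pass when genes under 50 reads were left out (adjusted p = 0.0255). It also passed when genomic reads, defined below, were left out (adjusted p = 4.61e-06), but that setting removes 1 Lpl read from replicate 1 and 158 from replicate 2, where single-exon reads of the 3′ end carry the genomic class, and so enlarges the difference by itself.

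Cd36, a membrane receptor for fatty acids, had 318 reads (512 CPM) and 373 reads (554 CPM). Slc27a1, a fatty acid transport protein of the plasma membrane, had 65 reads (105 CPM) and 90 reads (134 CPM). The read ratio of Fabp3 to Cd36 was 24.2 [21.6 to 27.2] in replicate 1 and 22.2 [20.0 to 24.7] in replicate 2. Per kb, Fabp3 stood at 15060 and Cd36 at 151 CPM in replicate 1, and at 14920 and 163 CPM in replicate 2. The ratios per kb, 100 and 91.6, are larger because Cd36 has the longer transcript.

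Activation and thioester genes were few and unequal. Acsl1, the long-chain acyl-CoA synthetase that activates fatty acids, had 94 reads (151 CPM) and 118 reads (175 CPM). Acot13, a thioesterase that splits acyl-CoA, stood far above it with 884 reads (1423 CPM) and 939 reads (1394 CPM), although most of its reads were not spliced, as described below. Acot2, a mitochondrial thioesterase, had 25 reads (40.2 CPM) and 45 reads (66.8 CPM). Its neighbour Acot1 had 11 and 18 reads, and the annotated transcripts Acot1-201 and Acot2-201 are 94.3% identical over 1330 aligned bases, so the split between these paralogs is uncertain.

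In the carnitine shuttle the muscle form of the entry enzyme was far above the liver form. Cpt1b, which couples acyl groups to carnitine at the outer mitochondrial membrane of muscle, had 174 reads (280.0 CPM) and 167 reads (248 CPM). Cpt1a, its liver-type counterpart, had 7 reads (11.3 CPM) and 10 reads (14.8 CPM). The read ratio of Cpt1b to Cpt1a was 24.9 [11.8 to 62.7] in replicate 1 and 16.7 [8.86 to 35.5] in replicate 2, or 37.1 and 24.9 per kb. These intervals overlap, and both lie well above 1. Cpt2, which returns the acyl group to CoA inside the mitochondrion, stood at 267 ± 15.4 CPM. Crat, the carnitine acetyltransferase that buffers short acyl-CoA, stood at 438 ± 13 CPM. Mlycd, which breaks down malonyl-CoA, the inhibitor of carnitine palmitoyltransferase 1, stood at 196 ± 15.0 CPM.

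Acyl-CoA dehydrogenases catalyse the first step of each round, and each handles a range of chain lengths. Acadm, for medium chains, had 921 reads (1482 CPM) and 1078 reads (1600 CPM). Acadvl, for very long chains, had 763 reads (1228 CPM) and 901 reads (1337 CPM). Acadl, for long chains, had 649 reads (1044 CPM) and 777 reads (1153 CPM). Acads, for short chains, was the low member with 55 reads (88.5 CPM) and 77 reads (114 CPM). The read ratio of Acadm to Acads was 16.8 [12.8 to 22.4] and 14.0 [11.1 to 17.9], or 15.3 and 12.8 per kb. All 4 dehydrogenases had the higher level in replicate 2, none of them by a difference that passed the adjusted threshold.

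Later steps of the cycle were led by Hadhb, which encodes the thiolase subunit (beta) of the trifunctional protein and cleaves off acetyl-CoA from long chains. It had 1581 reads (2544 CPM) in replicate 1 and 1998 reads (2966 CPM) in replicate 2. Hadha, the alpha subunit, which hydrates and oxidises the same chains, had 356 reads (573 CPM) and 435 reads (646 CPM). The protein is built from equal numbers of both subunits, and reads of Hadhb were 4.44 [3.96 to 5.0] times those of Hadha in replicate 1 and 4.59 [4.14 to 5.11] times in replicate 2, or 8.78 and 9.08 per kb. The ratio was close in both libraries, with intervals that overlap. The values per kb use the annotated 4017 bases of Hadha-205, whose 3′ end is at chr5:30118304. The incomplete models of Hadha with the most reads end earlier, at chr5:30119426, so the ratios per kb may be too high.

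Hadha and Hadhb stand back to back on chromosome 5, Hadha on the minus strand at chr5:30118304-30155162 and Hadhb on the plus strand at chr5:30155248-30184593, with starts 86 bases apart. The 85 bases between the annotated starts are shown because both genes are read outward from them and gave unequal reads. They are from RefSeq's promoter table (GRCm38.p6, plus strand, chr5:30155163-30155247), with matches to GGGCGG, a GC box, or its reverse complement in capitals.
between Hadha and Hadhb: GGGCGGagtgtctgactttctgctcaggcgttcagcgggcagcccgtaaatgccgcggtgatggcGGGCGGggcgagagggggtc
The stretch is 69.4% G or C and holds 2 matches. RefSeq promoters (300 bases around a start, both strands searched) were found for 24 of the 31 genes. GGGCGG was in 18 of their 27 promoters and in 35.7% of all 32851 promoters. TNAAGGTCA, a motif of estrogen-related receptors, was in none of the 27 and in 1.28% of all promoters. The shorter AAGGTCA, which lies within TNAAGGTCA, was in 1 of the 27, that of Acadm, and in 4.72% of all. A protein-coding gene on the other strand started within 1000 bases of 7 of the 31 genes (22.6%), against 10.9% of 21938 protein-coding genes. Hadha and Hadhb are 2 of the 7, each the neighbour of the other. Among the others, Tdp2 beside Acot13 had 4 and 13 reads and Ptpa beside Crat had 20 and 23 reads. Paox at Echs1 had 1 and 2 reads, 4930579G24Rik at Etfdh had 2 and 2, and Gm10570 at Fabp3 had 0 and 0. These last neighbours start inside the member and so do not stand back to back with it. The 10.9% counts such cases in the same way.

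Hadh, which oxidises short hydroxyacyl chains, had 365 reads (587 CPM) and 458 reads (680 CPM). Echs1, the short-chain enoyl-CoA hydratase, had 324 reads (521 CPM) and 377 reads (560 CPM). Acaa2, a thiolase of mitochondria, had 662 reads (1065 CPM) and 828 reads (1229 CPM). Acat1, the acetoacetyl-CoA thiolase, was near equal at 475 and 471 CPM, as was Hsd17b10, a hydroxyacyl-CoA dehydrogenase of short branched chains, at 354 and 344 CPM.

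Enzymes for unsaturated chains, which move or remove double bonds that the main cycle cannot pass, differed widely among themselves. Ech1, a dienoyl-CoA isomerase, had 890 reads (1432 CPM) and 1065 reads (1581 CPM). Decr1, the dienoyl-CoA reductase, had 121 and 147 reads. The ratio of Ech1 to Decr1 was 7.36 [6.08 to 8.97] and 7.25 [6.09 to 8.67] in reads, or 17.2 and 16.9 per kb. The values per kb use the annotated 2959 bases of Decr1-201, with its 3′ end at chr4:15917240. Most incomplete models of Decr1 end earlier, at chr4:15918686 or chr4:15918707, so these ratios may be too high. Eci1 and Eci2, enoyl-CoA isomerases, stood at 392 ± 24.6 and 223 ± 17.8 CPM.

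Electron transfer genes pass electrons from the dehydrogenases to ubiquinone. Etfb and Etfa are the subunits of the electron transfer flavoprotein, and Etfdh is the membrane enzyme that receives its electrons. Etfb had 1022 reads (1645 CPM) and 1163 reads (1726 CPM). Etfa had 604 reads (972 CPM) and 663 reads (984 CPM). Etfdh had 237 reads (381 CPM) and 308 reads (457 CPM). Etfb was thus 1.69 [1.53 to 1.87] and 1.75 [1.59 to 1.93] times Etfa in reads, or 2.64 and 2.73 times per kb. Ucp3, a mitochondrial carrier known to rise when fatty acid supply is high, was near the limit of detection with 5 reads (8.05 CPM) and 17 reads (25.2 CPM), a fold of 3.14 [1.11 to 10.9] that did not pass the adjusted threshold (p = 0.0188 unadjusted and 0.321 adjusted, exact two-sided binomial test).

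Between the libraries, 1 of the 31 genes was called, meaning that its adjusted p was under 0.05. Hadhb was 1.17-fold [1.09 to 1.25] higher in replicate 2 (adjusted p = 0.000476, exact two-sided binomial test with Benjamini-Hochberg adjustment over 7545 genes). None was called higher in replicate 1. Over all genes tested, 156 or 2.07% were called, 0.861% higher in replicate 1 and 1.21% higher in replicate 2. Deeper genes were called more often, with 9.78% of the 828 genes of at least 200 reads called, 4.35% higher in replicate 2, so 1 of 31 is near the background. At an unadjusted p under 0.05 there were 8 of the 31 genes, 7 of them higher in replicate 2 and Lpl higher in replicate 1, against 9.74% of all genes tested. That 9.74% is not matched in depth, since 26 of the 31 genes had at least 200 reads. Of all genes of that depth, 9.78% passed even the adjusted threshold, but their share at an unadjusted p under 0.05 was not computed. Whether the 8 genes are an excess is therefore not settled.

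Small differences ran mostly one way. The scaled level was higher in replicate 2 for 24 of the 31 genes and higher in replicate 1 for Fabp3, Lpl, Acot13, Cpt1b, Crat, Acat1 and Hsd17b10, while 50.1% of all tested genes were higher in replicate 2. Among genes of at least 200 reads it was 19 of 26 against 40.2% of 828. On the log2 scale the median of replicate 1 over replicate 2 came to -0.14 over the 31 genes, 0.00 over all genes tested and 0.05 over genes of at least 200 reads. Of the 31 genes, Hadhb was the 1 whose difference was called. Summed CPM without Fabp3 was 22331 in replicate 1 and 23634 in replicate 2, a ratio of 1.06.

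**Figure D2:**
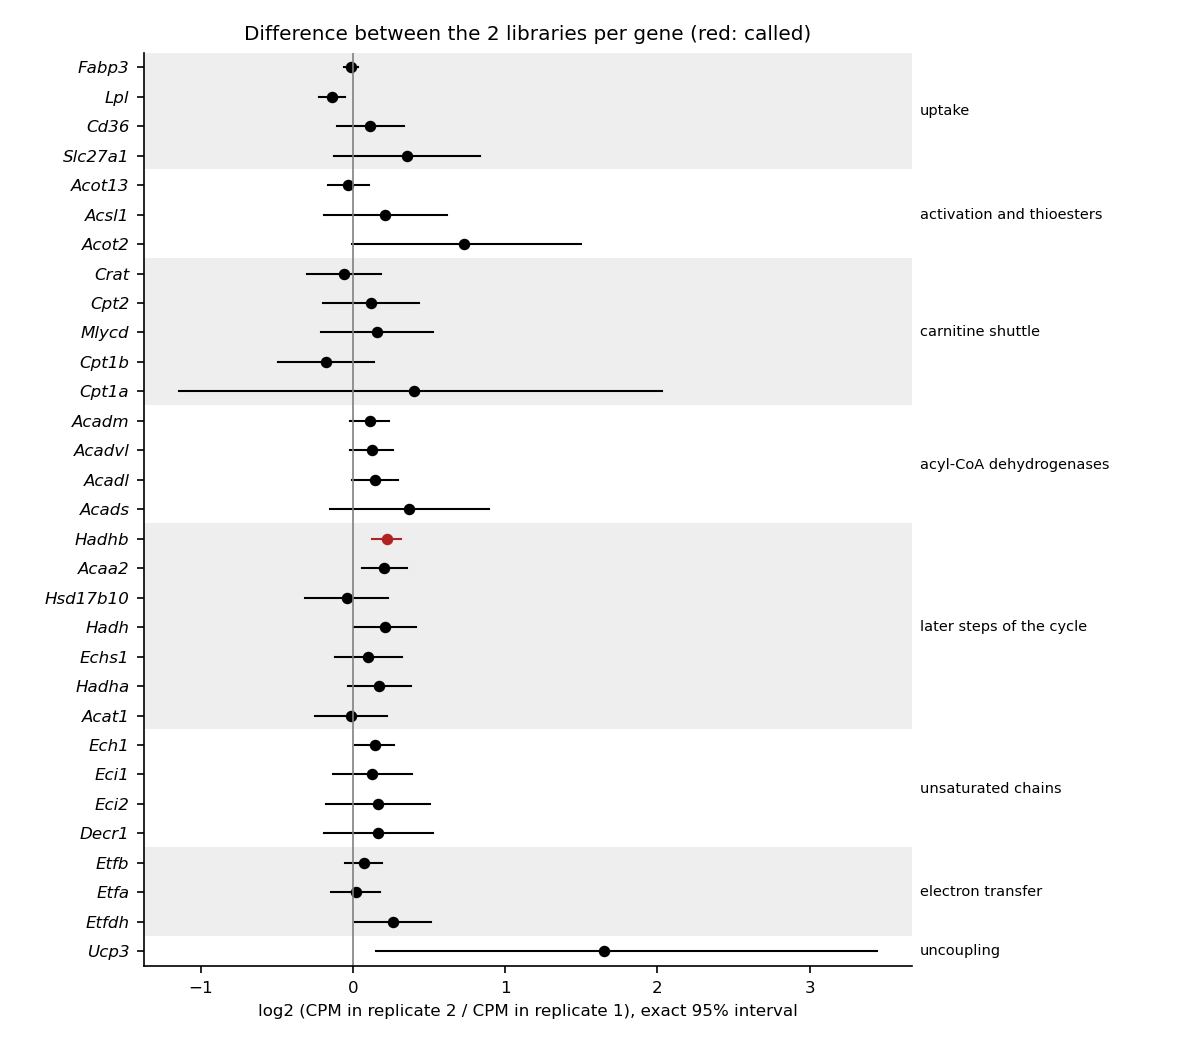
Log2 of the CPM in replicate 2 over that in replicate 1 for each of the 31 genes, with exact 95% intervals that cover counting error only, ordered by role. Most points lie right of 0, and Hadhb, in red, is the 1 gene called, at 1.17-fold [1.09 to 1.25].

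The libraries also differed in markers of other cell types. The marker lists were chosen with earlier results of these data known, and their counts stand beside 2.07% called over all genes tested. Adipocyte markers summed to 99.8 CPM (replicate 1) and 1064 CPM (replicate 2), with 5 of 6 tested markers called higher in replicate 2, Cfd, Car3, Cidec, Adipoq and Retn, and no reads of Lep. Atrial muscle markers summed to 1806 and 4319 CPM with 4 of 4 called higher in replicate 2, led by Nppa. Airway epithelium markers summed to 0 and 620 CPM with 4 of 4 tested called higher in replicate 2, led by Bpifa1, and no reads of Sftpc. Erythroid markers summed to 30391 and 11784 CPM with 5 of 5 called higher in replicate 1, led by Hba-a1. Cardiomyocyte markers, which carry the label of the tissue, summed to 39726 and 36363 CPM, with Pln, Myh6 and Myl2 of 8 called higher in replicate 1 by at most 1.13-fold. Endothelial markers summed to 402 and 381 CPM with 0 of 7 called. Skeletal muscle markers summed to 1.61 and 4.45 CPM and liver markers to 0 and 4.45 CPM. The part of these cell types in the shift of the 31 genes was not tested.

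Genes around the route were looked up in lists chosen with earlier results of these data known. Their members were counted in the same test over all genes, which called 2.07% of all genes tested and 9.78% of those of at least 200 reads. Among other genes of fatty acid transport, binding and activation, 2 of 10 tested were called, both higher in replicate 2. Fabp4, the fatty acid binding protein of fat and endothelial cells, had 357 and 619 reads, a fold of 1.60 [1.40 to 1.83] (adjusted p = 1.54e-10, exact binomial test). Gpihbp1, which anchors lipoprotein lipase to capillary endothelium, had 39 and 80 reads, a fold of 1.89 [1.28 to 2.85] (adjusted p = 0.0453, exact binomial test). Both genes were higher in the library with more adipocyte marker reads, while 0 of 7 endothelial markers were called. The part of these cell types in the 2 calls was not tested. Lpl itself was lower in that library, at 3398 against 3740 CPM. Dbi, the acyl-CoA binding protein, and Acss1, a mitochondrial acetyl-CoA synthetase, stood at 592 ± 86.3 and 404 ± 77.6 CPM and were not called.

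Of the regulators of fatty acid oxidation, 3 of 17 tested were called, against 2.07% of all genes tested. Pdk4, the kinase that restrains pyruvate use when fatty acids are burned, had 125 reads (201 CPM) and 531 reads (788 CPM), a fold of 3.92 [3.22 to 4.80] higher in replicate 2 (adjusted p = 1.05e-50, exact binomial test). Esrra, a nuclear receptor of energy metabolism, had 2470 and 2016 CPM and was 1.23-fold [1.14 to 1.32] higher in replicate 1. Ppara, the nuclear receptor that senses fatty acids, had 11 reads, all in replicate 1 (adjusted p = 0.0192, exact binomial test). Pdk2 stood at 372 ± 4.97 CPM. Among members of at least 200 reads the highest fold towards replicate 2 was 1.20 [1.01 to 1.43], for Etfdh, which was not called. Ucp3, with 5 and 17 reads, was not called, and its interval of 1.11 to 10.9 is too wide to set beside Pdk4.

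Peroxisomal oxidation had 1 of 14 tested genes called, against 2.07% of all genes tested. This was Scp2, a thiolase and sterol carrier, at 1.33-fold [1.12 to 1.58] higher in replicate 2 (adjusted p = 0.0458, exact binomial test). Phyh, of branched chain breakdown, and Cat, catalase, stood at 703 ± 19.9 and 185 ± 15.7 CPM. Ketone body genes had 1 of 5 called, Bdh1, the hydroxybutyrate dehydrogenase, at 2.08-fold [1.38 to 3.18] higher in replicate 1 (adjusted p = 0.0146, exact binomial test). Oxct1, which activates ketone bodies, stood at 814 ± 37.6 CPM and was not called. Other mitochondrial acyl-CoA enzymes had 0 of 15 tested genes called, with Mcee, Ivd and Acad12 at 1360 ± 74.4, 265 ± 10 and 126 ± 1.73 CPM. Carnitine supply genes had 0 of 3 called, with Slc25a20, the carrier that brings acylcarnitine through the inner membrane, at 50.9 ± 1.46 CPM, Crot at 29.9 ± 8.12 CPM and Slc22a5 at 25.4 ± 1.82 CPM.

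The deposited tables sort every transcript model into a class. Known models match an annotated transcript. Incomplete splice matches hold a consecutive part of the introns of one, or lie within its exons. New combinations join annotated splice sites in a way the annotation lacks, and models with a new splice site use at least 1 unannotated site. Genomic models overlap a gene without following its splicing. Known transcripts held 83.6% and 83.4% of the reads of the 31 genes in replicates 1 and 2, against 69.9% and 68.6% over all annotated genes. Incomplete matches held 10.5% and 10.4%, against 15.6% and 18.1%. The genomic class held 3.92% and 4.29%, against 9.37% and 8.30%. New combinations held 0.908% and 0.765%, against 2.74% and 2.76%, and new splice sites 1.09% and 1.13%, against 2.30% and 2.23%. Fabp3, with 97.7% and 97.5% known reads, weighs on the sums of the 31 genes, and the medians over genes were closer. The median share of known reads was 80.7% and 83.0% over 29 tested members and 76.1% and 75.0% over all 4765 tested genes.

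**Figure D3:**
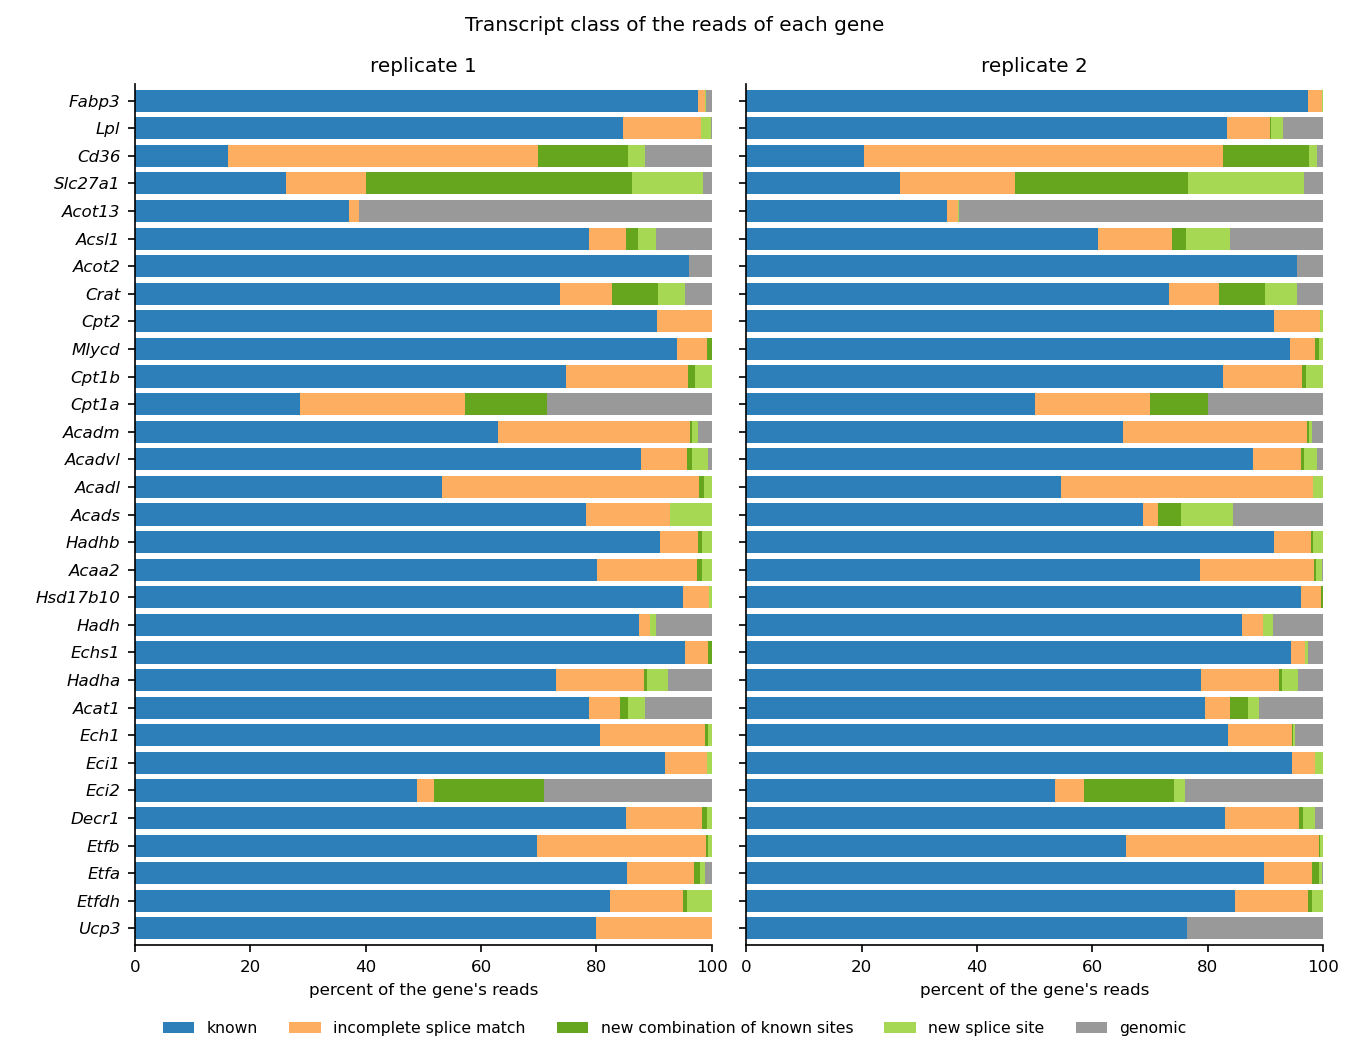
Percent of each gene's reads in the 5 transcript classes, with replicate 1 on the left and replicate 2 on the right. Most bars are mainly known (blue), while Cd36, Acadl, Acadm and Etfb hold large incomplete shares, Slc27a1 large shares of new splicing, and Acot13 and Eci2 large genomic shares.

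Most reads of the 31 genes came from few models that recurred. Both libraries shared 304 of the 736 models, and these held 98.1% and 98.0% of the reads. Known transcripts numbered 61, of which 48 were in both, and 99.8% of their reads in each library came from transcripts annotated as protein-coding. In 25 genes a single known transcript held more than 50% of the reads in both libraries. Of 366 models with new splicing, 85 were in both libraries, 12 of them with at least 5 reads in each, and 251 rested on 1 read in total.

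Reads that carried all introns of the coding part of the leading transcript, and no other intron there, were counted for each gene. Forms with another splice site in that part do not count, and genomic reads stay in the total, so a low share need not mean short reads. That share was 97.7% [97.3 to 98.0] and 97.5% [97.1 to 97.8] for Fabp3, 93.4% and 94.3% for Hadhb, and 86.8% and 87.5% for Acadvl with its 19 coding introns. It was 61.8% and 64.4% for Acadm, 53.3% and 54.6% for Acadl, 69.7% and 66% for Etfb, 33.0% and 38.1% for Cd36, 37.1% and 34.8% for Acot13, and 35.9% and 39.0% for Eci2. In Eci2, however, models of 10 exons, the number in its leading transcript, held 67.9% and 69.2% of the reads. Incomplete matches held 3.05% and 5.03% of Eci2 reads. Over the 31 genes the shares in the 2 libraries had a Pearson r of 0.952 and a Spearman rho of 0.937. Transcript length against the share had a Pearson r of -0.19 and a Spearman rho of -0.21 in replicate 1, and -0.13 and -0.20 in replicate 2. The number of exons against the share had r of -0.22 and rho of -0.39 in replicate 1, and -0.16 and -0.32 in replicate 2. These correlations are descriptions across 31 genes of the same 2 libraries.

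The low shares came from particular models, seen in both libraries. Of all incomplete-match reads of the 31 genes, 69.9% and 71.0% were suffixes of 2 or more exons, which keep the last introns and lack earlier ones. Another 29.1% and 27.9% were single exons overlapping the last annotated exon. Prefixes, which keep the first introns and lack later ones, held 0.748% and 0.756%. A model can lack an intron without lacking an end, as a Fabp3 prefix of 2 exons and 3429 bases spans chr4:130308595-130315463, the whole gene. In Acadm a model of 2 exons held 287 of 921 reads (31.2%) and 323 of 1078 reads (30%), while reads with 3 to 11 of the 12 exons numbered 20 and 23. That model keeps 3 bases of the last but one exon, which has 249, and 646 bases of the last. The junction is shown with those 3 bases in capitals (minus strand, chr3:153922973-153925694, GENCODE M21 on mm10).
Acadm-201: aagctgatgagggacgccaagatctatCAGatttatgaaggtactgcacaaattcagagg
So most Acadm reads were assigned either to models of all 12 exons or to this model of 2 exons. In Acadl the last exon alone, as a model of 689 bases, held 196 reads (30.2%) and 213 reads (27.4%). In Cd36 the last 2 exons held 153 reads (48.1%) and 170 reads (45.6%), more than any full-length model of the gene. Etfb had a 4-exon suffix with 185 reads (18.1%) and 220 reads (18.9%), and its last exon alone held 88 reads (8.61%) and 144 reads (12.4%). Acaa2 had its last exon alone in 86 reads (13%) and 129 reads (15.6%). The origin of these shorter reads was not tested. Of the incomplete models, 65.9% of 214 and 62.3% of 228 began exactly at an exon edge of the leading transcript, so a listed start need not be the first base of a read.

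**Figure D4:**
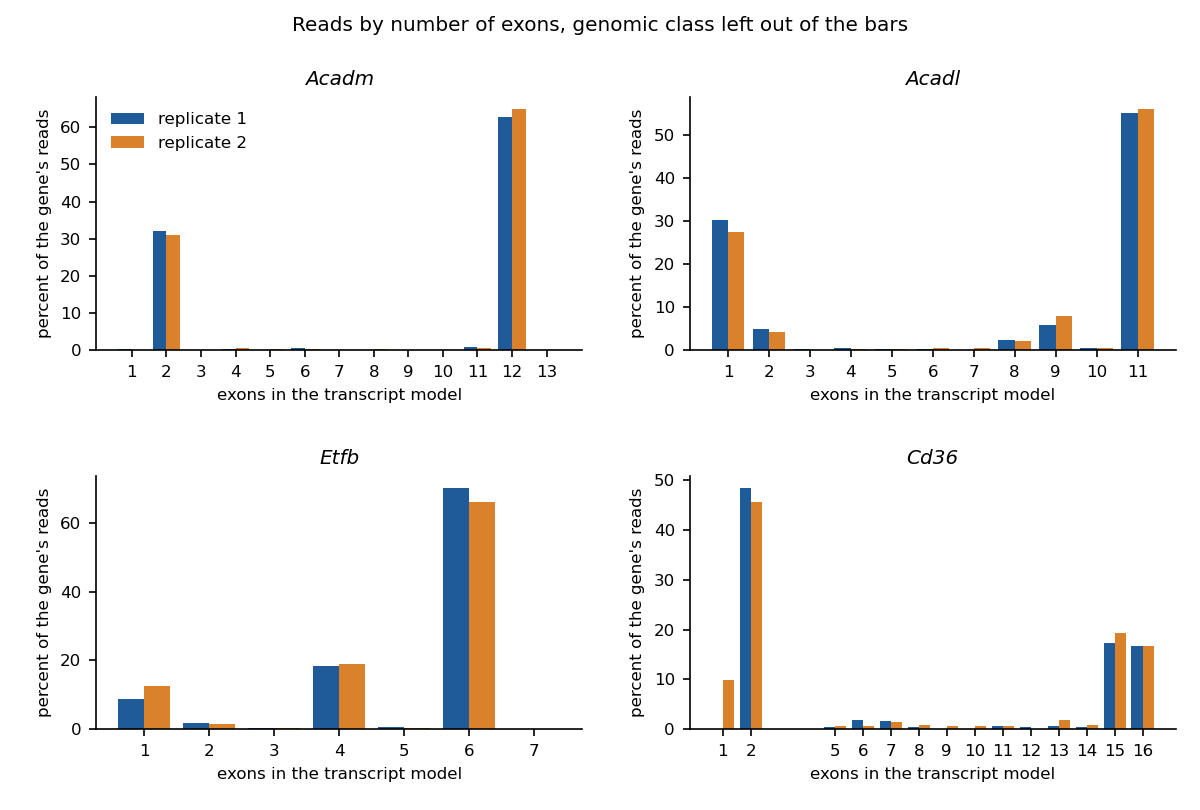
Percent of each gene's reads by the number of exons in the transcript model for Acadm, Acadl, Etfb and Cd36, with replicate 1 in blue and replicate 2 in orange, and genomic reads left out of the bars but kept in the total. Reads gather at or near the full number of exons and at few specific smaller numbers, such as 2 exons in Acadm and Cd36, and 4 exons and 1 exon in Etfb.

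In the genomic class, 631 of 845 reads and 683 of 1038 reads belonged to models with a listed length of at most 10 bases. Acot13 was the main case, with 540 reads (61.1%) and 593 reads (63.2%) on models listed as 1 base long, and Eci2 had 38 reads in each library (29.0% and 23.9%). The listed length of these models is therefore not a read length, and such reads count towards a gene's level with no splicing to identify it. With genomic reads left out, the leading transcript Acot13-201 held 95.3% and 94.5% of the reads.

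Shares of the leading transcript, tested with genomic reads left out, were called different between the libraries in 3 of 29 members, against 1.73% of 4223 genes (Fisher's exact test, two-sided, Benjamini-Hochberg adjustment over all genes tested). The share was 98.6% and 97.5% for Fabp3-201 (adjusted p = 3e-05), 84.6% and 89.5% for the leading Lpl-201 (adjusted p = 0.000139), and 79.8% and 87.0% for Ech1-201 (adjusted p = 0.00218), all by Fisher's exact test. In each of the 3, single-exon reads at the 3′ end were listed as genomic in one library and as incomplete matches in the other. Fabp3 had 72 reads on a genomic model at chr4:130311132-130315463 in replicate 1 and 91 reads on an incomplete match at chr4:130313954-130315463, inside it, in replicate 2. Lpl had 138 reads on an incomplete match at chr8:68905513-68906934 in replicate 1 and 156 on a genomic model at chr8:68905378-68906934 in replicate 2. Ech1 had 43 reads on an incomplete match of 244 bases at chr7:28832004-28832247 in replicate 1. In replicate 2 it had 51 reads on a genomic model of 2324 bases at chr7:28829924-28832247, which ends at the same base. Whether the reads behind such paired models are alike was not tested. Counted together, single-exon incomplete and genomic reads were 0.935% and 1.1% of Fabp3, 7.19% and 7.78% of Lpl, and 4.83% and 4.79% of Ech1. With the genomic class kept, 0 of 29 members were called in this test, against 1.03% of 4765 genes. Of known-transcript shares with all classes kept, 0 of 29 members were called, against 0.147% of 4765 genes, and 2 of 29 had an unadjusted p under 0.05 (Fisher's exact test, two-sided).

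In 4 genes the main alternative forms differed before the start codon and left the coding introns alone. Hadhb had 3 annotated forms that differ in where the first exon ends. Hadhb-201 had 801 and 1009 reads, Hadhb-203 had 603 and 776, and Hadhb-202 had 34 and 43. These were 50.7% and 50.5%, 38.1% and 38.8%, and 2.15% and 2.15% of the gene's reads, so the 3 forms held near the same shares in both libraries, and each had more reads in replicate 2. Acsl1 used 2 first exons. Among reads with all coding introns, the one that ends 1671 bases before the start codon in the genome held 65.0% and 65.9%, and one that ends 21602 bases before it held 31.2% and 25.6%.

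Cd36 used 3 first exons. They held 63.8% and 51.4%, 25.7% and 28.2%, and 7.62% and 13.4% of the 105 and 142 reads with all coding introns, with the exons ending 20763, 59817 and 6724 bases before the start codon. A new combination that joins the first of these to the exon of the last had 27 and 31 reads, about as many as the annotated Cd36-204 with 25 and 32. Another, which joins the farthest first exon directly to an exon that the other new combination also uses, had 13 and 15 reads. In Slc27a1 the leading form was itself a new combination, with 14 reads (21.5%) and 20 reads (22.2%) against 10 and 18 for the annotated Slc27a1-207. It inserts 1 more exon before the start codon. In Slc27a1 and Cd36 no known or new spliced transcript led with a majority of all reads in either library.

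**Figure D5:**
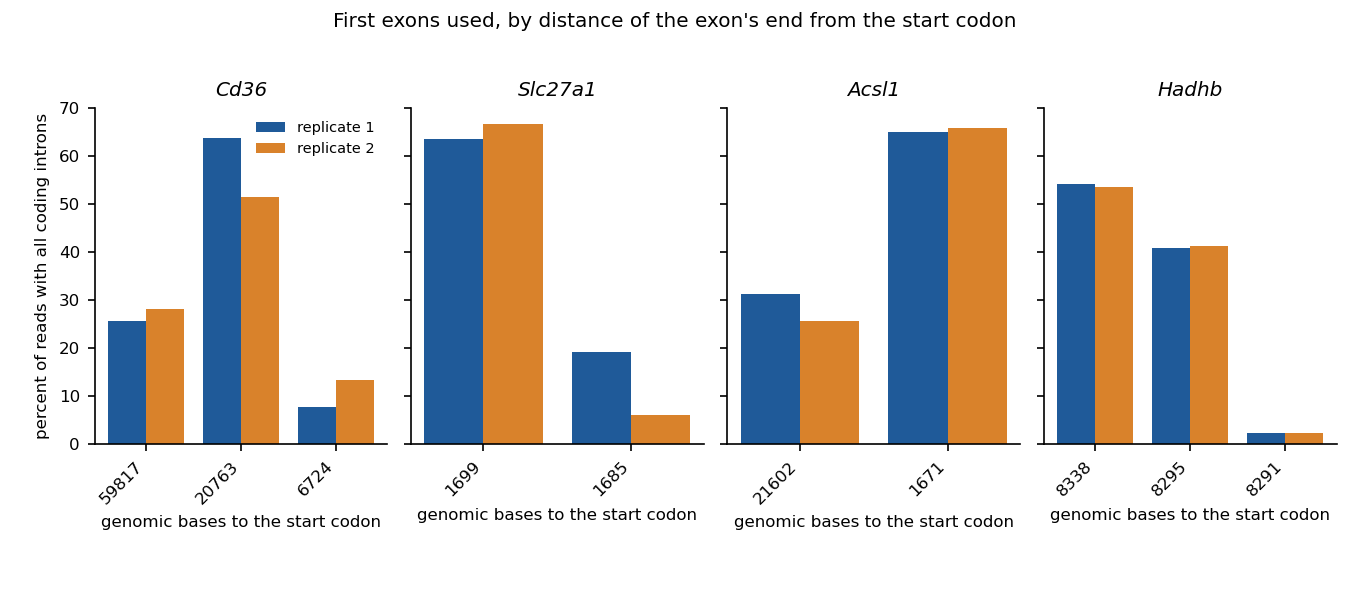
Percent of reads with all coding introns that used each first exon in Cd36, Slc27a1, Acsl1 and Hadhb, labelled by the genomic distance from the end of that exon to the start codon. Bars of replicate 1 (blue) and replicate 2 (orange) follow the same order of use within each gene, and first exons under 2% in replicate 1 are not drawn.

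In Eci2 the first exon bears on the coding part. Eci2-211 had 47 and 62 reads and starts its coding part in exon 1, while Eci2-201 had 16 and 20 reads, has another first exon end and starts in exon 2. The stretch of Eci2-211 from its start codon on is shown with both start codons in capitals (minus strand, chr13:34993143-34994057, GENCODE M21 on mm10).
Eci2-211: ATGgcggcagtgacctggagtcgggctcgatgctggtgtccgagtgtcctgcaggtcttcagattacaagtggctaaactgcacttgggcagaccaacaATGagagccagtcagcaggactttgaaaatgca
The start codons lie 99 bases apart and in 1 frame, so the annotated coding parts differ by 33 codons at the start. New combinations of annotated splice sites around exons 1 and 2 had 14 and 10, 6 and 7, and 5 and 6 reads.

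Lpl and Crat each had a form that differs by 3 coding bases. In Lpl, a model with 11 and 7 reads begins exon 4 later by 3 bases, against 1965 and 1907 reads of the annotated Lpl-201. The junction of exons 3 and 4 is shown in both forms, with the 3 bases in capitals (exon parts on the plus strand, chr8:68892745-68894659, GENCODE M21 on mm10).
Lpl-201: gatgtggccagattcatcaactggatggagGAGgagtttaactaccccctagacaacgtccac
Lpl shorter exon 4: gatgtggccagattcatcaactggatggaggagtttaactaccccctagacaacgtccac
The annotated form has 3 GAG codons in a row there and the other has 2, so the frame is kept. In Crat, a model with 5 and 9 reads ends exon 1 earlier by 3 bases, against 205 and 212 reads of Crat-201. Its coding part from the start codon into exon 2 is shown, again with the 3 bases in capitals (minus strand, chr2:30413217-30415338, GENCODE M21 on mm10).
Crat-201: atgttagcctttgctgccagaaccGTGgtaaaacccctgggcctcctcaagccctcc
Crat shorter exon 1: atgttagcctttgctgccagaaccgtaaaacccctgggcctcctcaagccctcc
A new combination in Crat with 12 and 13 reads ends exon 1 later by 117 bases. Its listed start, chr2:30415333, lies past the start codon shown, which begins at chr2:30415338. The model as listed therefore lacks that start codon and is not Crat-201 with bases added.

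The remaining new forms with at least 5 reads in each library were small shares of their genes. Lpl had 19 and 30 reads (0.818% and 1.31%) that splice out 656 bases of the last exon, chr8:68905164-68905819, behind the coding part. Fabp3 had 11 and 13 reads (0.143% and 0.157%) with an added exon of 161 bases at chr4:130309442-130309602, a length that is not a whole number of codons. Acadl had 5 and 8 reads (0.770% and 1.03%) in which an exon is 2 bases longer.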

How the data were processed

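The values are the deposited raw counts, 1 for each long read assigned to a transcript model, per the file headers. The tables also list the gene, class, exon number and length of a model, and a second file gives its exon coordinates. Notes deposited with the libraries name mm10 and GENCODE M21, and the model file credits TALON. For the aligner, versions and filters, the sources used here give nothing.

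Counts were summed per annotated gene over all classes. TMM scaling was applied to the library sizes (factors 0.986 and 1.014 from genes with at least 10 reads, edgeR 4.0.16, R 4.3.3), and CPM were computed here, so 1 read is about 1.61 and 1.48 CPM. New models were matched between libraries by intron chain, or, for single exons, by a reciprocal overlap of at least 50%. Ratios on the log2 scale had 0.5 reads added to each library. Genes with at least 10 reads over both libraries were tested by an exact two-sided binomial test, and transcript shares, with at least 10 reads in each library, by Fisher's exact test. All p-values were Benjamini-Hochberg adjusted over all genes tested and called at 0.05. Both procedures were tested on simulated data with counting error only, which cannot show how they behave where libraries differ by more than that. All 109 known transcript entries of the 31 genes had the same exons as in M21. Python 3.11.15 with scipy 1.17.1, pandas 2.3.3, numpy 2.4.6, Biopython 1.88 and matplotlib 3.10.9 did the rest, and alternative size factors were those of DESeq2 1.42.0.

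The 31 genes, the related lists and the marker lists were chosen with earlier results of these data known. Values in both libraries are given for members of at least 500 CPM or under 20 CPM on average, called members, and members whose leading transcript holds under 50% of the reads, and others are named with their values as members. New-splice models are named with at least 5 reads in each library, and in the related lists the called genes and the 3 most abundant, in marker lists called genes or the most abundant. In one list the methylmalonyl-CoA mutase gene was looked up under its M21 symbol Mut. Slc27a6 had no reads. Alternatives changed library sizes, classes, read minimums and the reads added.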

Additional observations from a re-analysis of the deposited data

How the results depend on the processing

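Hadhb was called higher in replicate 2 under each alternative of library size, class and read minimum. The number of members called higher in replicate 1 went from 0 to 1, Lpl, with at least 50 reads over both libraries, where fewer genes are tested, and with the genomic class left out, which drops 1 Lpl read in replicate 1 and 158 in replicate 2. The count of members with a higher level in replicate 2 was 24 to 28 of 31 where all were tested, and 25 with known transcripts only, where 30 were tested, and their median log2 ratio (replicate 1 over 2) ran from -0.18 to -0.13. Total mouse reads as library sizes gave 28 and shifted the median of all genes by -0.04. The summed CPM of 35320 became 44760 with known transcripts only and 36990 with the genomic class left out, since those totals leave out more reads of other genes, and ran from 34720 to 35910 when either replicate was left out. Members called in leading transcript share fell from 3 to 0 with the genomic class kept, with known transcripts only and with incomplete splice matches left out, while the share of all genes called went from 1.73% to 1.03%, 0% and 0%. Members called in known-transcript share rose from 0 to 3 with the genomic class left out and to 4 with incomplete matches counted as known, Cd36 being the fourth, while the share of all genes called rose from 0.147% to 1.73% and 2.96%. No paired analysis was possible because there is 1 group of 2 libraries. Few reads limit Cpt1a, Ucp3 and Acot2, whose folds span wide intervals.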
